A study of Mus musculus with 6 samples.

Results

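The genes described here are 10 genes of antigen presentation by the major histocompatibility complex (MHC), out of 34745 genes listed for mouse liver. They were taken by exact gene name. The 5 genes of the class I pathway were H2-K1, H2-D1, B2m, Tap1 and Tapbp, and the 5 genes of the class II pathway were H2-Aa, H2-Ab1, H2-Eb1, Cd74 and Ciita. Bulk RNA-Seq had been performed on livers of wild-type C57BL/6J mice aged 8 to 10 weeks, which the Methods describe as male. After a fast of 12 hours the mice received an intraperitoneal overdose of acetaminophen (APAP, 300 mg/kg) for 12 hours or saline. The comparison asks how the liver transcriptome differed between APAP and control mice. Of 3 livers per group, 2 APAP libraries (replicates 1 and 3) and 3 libraries named WT1, WT2 and WT3 were analysed. The WT columns do not carry the names of the saline samples and were read as the saline group, since the other columns are named for APAP. APAP replicate 2 was not analysed here.

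Total counts ranged from 13378445 to 15976339 per library. Each level below is in CPM, the read count scaled to a library of fixed size, after TMM scaling, which corrects for the composition of a library. The factors were 1.27 and 1.09 with APAP and between 0.783 and 0.980 with saline. Sex-linked genes separated the groups, although male mice are described. Xist, the RNA that coats the inactive X chromosome of females, was at 0.762 and 1.73 CPM after APAP and between 289.5 and 913 CPM after saline. Ddx3y, on the Y chromosome, was at 78.8 and 61.6 CPM after APAP but had no more than 1 count in any saline library. Treatment and sex-linked expression therefore cannot be told apart in any comparison of the groups. Albumin, the main product of hepatocytes, made up between 6.56% and 11.3% of the counts of a library. The Methods state that experiments were repeated on separate biological samples, and no label ties a library to a mouse. The p-values are therefore read as setting a group difference against the variation between libraries, which is not known to be that between mice.

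MHC class I molecules display peptides from inside the cell to CD8+ T cells and are made by nearly every nucleated cell, including hepatocytes. A heavy chain (H2-K1 or H2-D1 in these mice) pairs with β2-microglobulin (B2m), and peptides are pumped into the endoplasmic reticulum by the transporter TAP and loaded with the help of tapasin (Tapbp). MHC class II molecules display peptides from engulfed material to CD4+ T cells and are made mainly by dendritic cells, B cells and macrophages. Their α and β chains (H2-Aa, H2-Ab1 and H2-Eb1) assemble on the invariant chain (Cd74) under the control of the transactivator Ciita. In a bulk sample, fewer cells of a type and less RNA per cell cannot be told apart.

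The class I and class II promoters are built from short shared elements, and those of the genes whose values are compared most closely below are shown for that reason. RefSeq promoter entries on GRCm38.p6, reaching from 250 bases before to 50 bases after a start site, were found for 7 of the 10 genes, and H2-Ab1, Cd74 and Ciita had none. Stretches before the start site are printed on the strand of the gene. For class I, capitals mark a κB element (the first run of capitals in H2-K1 and H2-D1), AANNGAAA (the core of an interferon response element), TGACG (the core of a cAMP response element) and ATTGG (the Y box), each on either strand. For class II, they mark GCAAC (the core of the X box), TGACG and ATTGG. H2-Q10, a secreted class I gene of the liver, is shown as a further abundant class I gene.
H2-K1, chr17:34000334-34000468, minus strand: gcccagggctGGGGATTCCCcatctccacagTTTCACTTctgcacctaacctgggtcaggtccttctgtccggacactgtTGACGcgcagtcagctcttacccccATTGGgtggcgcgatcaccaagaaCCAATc
H2-D1, chr17:35262913-35263055, plus strand: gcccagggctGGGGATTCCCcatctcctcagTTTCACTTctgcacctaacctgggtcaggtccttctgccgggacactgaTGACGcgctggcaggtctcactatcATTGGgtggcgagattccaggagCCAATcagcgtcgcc
H2-Q10, chr17:35469903-35470012, plus strand: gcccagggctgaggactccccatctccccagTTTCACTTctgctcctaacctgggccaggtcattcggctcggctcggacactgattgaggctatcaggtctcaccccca
B2m, chr2:122147540-122147648, plus strand: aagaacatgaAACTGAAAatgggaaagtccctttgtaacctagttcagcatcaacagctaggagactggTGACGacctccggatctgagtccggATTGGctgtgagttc
H2-Aa, chr17:34287857-34287914, minus strand: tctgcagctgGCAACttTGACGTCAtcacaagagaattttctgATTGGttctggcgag
H2-Eb1, chr17:34305766-34305846, plus strand: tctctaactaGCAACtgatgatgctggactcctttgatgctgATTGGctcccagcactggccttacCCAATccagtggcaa

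The H2-K1 and H2-D1 stretches were identical at 99 of their first 110 bases (90.0%) and held the 4 class I motifs in the same order. The H2-Q10 stretch, compared without gaps, was identical to each of them at 70 of 110 bases (63.6%). Of 32851 promoter entries, 0.107% held the κB element, 23.9% the interferon response core, 20.8% TGACG and 37.4% ATTGG, and 4 entries held all of them. In H2-Q10 only the interferon response core was found, and in B2m that core, TGACG and ATTGG. In H2-Aa and H2-Eb1, GCAAC was followed by ATTGG within 40 bases on the gene strand, as in 0.758% of all entries, and in H2-Aa the TGACG matches of both strands overlapped. A match is a description of these letters and was not tested as a binding site.

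Among the class I genes, B2m, H2-K1 and Tapbp were lower in either APAP library than in any saline library, at 47.6%, 51.7% and 53.9% of the saline mean, while H2-D1 and Tap1 overlapped between the groups. Of the 10 genes, 0 had an adjusted p under 0.05 in edgeR's quasi-likelihood test, against 7.23% of the 13734 genes tested. At an unadjusted p under 0.05, 3 of the 10 genes passed (B2m, H2-K1 and Tapbp), against 24.9% of all tested genes. These 3 also met a threshold that adds a 1.5-fold change, as did 23.5% of all tested genes, 11.2% in the lower direction and 12.3% in the higher. The groups did not overlap for 3 of the 10 genes, all lower with APAP, and for 44.1% of all tested genes, 20.2% lower and 23.9% higher. With DESeq2, 2 of the 10 genes (B2m and H2-K1) had an adjusted p under 0.05, against 15.2% of all tested genes. The same 2 passed with edgeR's likelihood ratio test, against 13.4%, and B2m alone with its exact test, against 12.9%. These counts are near the shares of all genes.

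B2m (ENSMUSG00000060802, chromosome 2 of GRCm38, 122147686 to 122153083), the light chain of every classical class I molecule, was at 742 and 801 CPM in APAP replicates 1 and 3. It was at 1799.7, 1573 and 1489.8 CPM in WT1, WT2 and WT3. Both APAP values lay far below the lowest saline value. The mean was 771 ± 41.3 CPM (SD, n = 2) with APAP and 1621 ± 160.4 CPM (SD, n = 3) with saline. The log2 fold change was −1.07 (standard error 0.28, 95% interval −1.73 to −0.42), with an adjusted p of 0.0663 in edgeR's quasi-likelihood test. It was 1.24e-05 in DESeq2.

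H2-K1 (ENSMUSG00000061232, chromosome 17, 33996017 to 34000333), a classical heavy chain, was at 563 and 525 CPM after APAP. The saline libraries were at 1282, 890.0 and 983 CPM. The groups were again separate, with a saline spread larger than that of B2m. The log2 fold change was −0.95 (standard error 0.29, 95% interval −1.63 to −0.27), with an adjusted p of 0.0976 in edgeR's quasi-likelihood test and 0.00311 in DESeq2. Tapbp (ENSMUSG00000024308, chromosome 17, 33915899 to 33929288), which bridges the empty heavy chain to TAP, was at 38.2 and 48.9 CPM after APAP. It was at 112, 71.8 and 58.3 CPM after saline. The gap between the groups was smaller than the spread among the saline libraries. Its log2 fold change was −0.89 (standard error 0.32, 95% interval −1.66 to −0.12), with an adjusted p of 0.149 from the same test.

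H2-D1 (ENSMUSG00000073411, chromosome 17, 35262730 to 35267499), the other classical heavy chain, was at 681 and 578 CPM after APAP. It was at 798, 571 and 716 CPM after saline, so that the APAP values fell inside the saline range. The log2 fold change of −0.14 had a 95% interval from −0.79 to 0.50, which covers a fall of more than 1.5-fold as well as no change (adjusted p = 0.793, edgeR). Tap1 (ENSMUSG00000037321, chromosome 17, 34187553 to 34197225), a subunit of the peptide transporter, was at 11.6 and 10.7 CPM after APAP and at 11.9, 14.1 and 8.68 CPM after saline. Its APAP values also lay inside the saline range. Its log2 fold change was −0.05, with an interval from −0.70 to 0.60 (adjusted p = 0.930, edgeR).

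**Figure D1:**
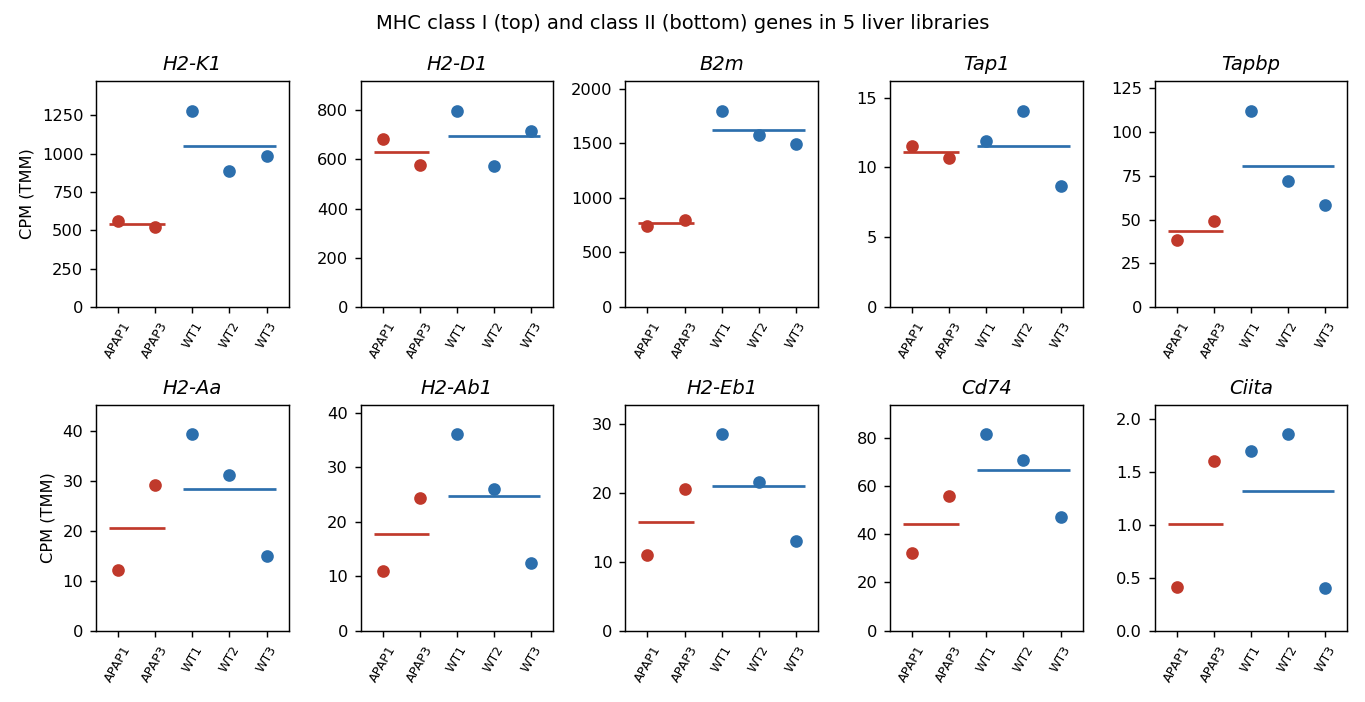
TMM-scaled CPM (vertical axis, from 0) of the 10 genes in each library, APAP in red and saline (WT) in blue, with lines at the group means. B2m, H2-K1 and Tapbp are lower in either APAP library than in any saline library, and each class II gene is lowest in APAP replicate 1 and WT3.

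The contrast between the heavy chains was also read as a ratio of raw counts within each library, which no scaling can change. H2-K1 had 0.826 and 0.909 counts for each count of H2-D1 in the APAP libraries. In the saline libraries the ratio was 1.61, 1.56 and 1.37. H2-K1 thus had fewer counts than H2-D1 in both APAP libraries and more in all 3 saline libraries. The mean ratio was 0.867 ± 0.0585 (SD, n = 2) with APAP and 1.51 ± 0.123 (SD, n = 3) with saline. An exact two-sided permutation test gave p = 0.2, which is the smallest p that 2 against 3 libraries allow. B2m to H2-D1 moved in the same direction, at 1.09 and 1.39 with APAP and at 2.25, 2.75 and 2.08 with saline (exact permutation p = 0.2). B2m to H2-K1 overlapped between the groups, at 1.32 and 1.53 with APAP and at 1.40, 1.77 and 1.52 with saline. The ratios show unequal differences and not which gene stayed at its level. Of the 50-base words of the longest coding transcript, 8.79% of H2-K1 and 14.3% of H2-D1 also occur in other genes, so that part of their reads cannot be assigned to 1 gene with certainty, while B2m shares none.

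**Figure D2:**
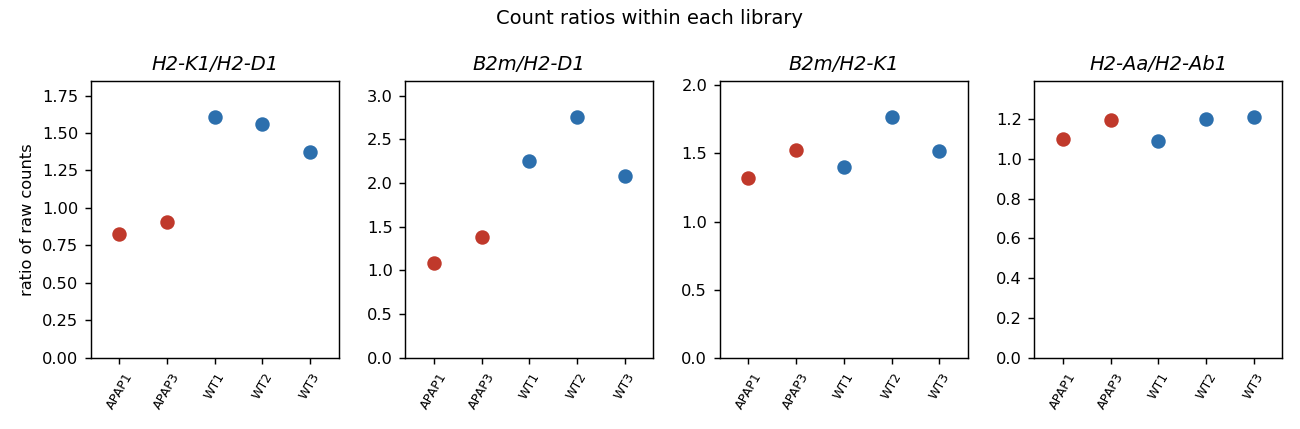
Ratio of raw counts (vertical axis, from 0) of gene pairs within each library, APAP in red and saline (WT) in blue. H2-K1/H2-D1 and B2m/H2-D1 are lower in both APAP libraries (0.826 and 0.909 for H2-K1/H2-D1) than in the saline libraries (1.37 to 1.61), while B2m/H2-K1 and H2-Aa/H2-Ab1 overlap.

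Hepatocyte markers were read beside the class I values, since hepatocytes make up most of the liver. Of 10 markers, 8 were lower and 2 higher with APAP, and the median log2 fold change was −0.58. Groups did not overlap for 7 lower and 1 higher marker, against 20.2% lower and 23.9% higher of all tested genes. In edgeR 0 of the 10 markers had an adjusted p under 0.05, against 7.23% of all tested genes. At an unadjusted p under 0.05, 4 of the markers passed, against 24.9%. Chosen after their values were seen, Ttr, the thyroxine carrier transthyretin, was at −1.64, Tat, a tyrosine-degrading enzyme, at −1.37, Hnf4a, a master regulator of hepatocytes, at −0.95 and Cps1, of the urea cycle, at −0.90 (log2 fold change). The 2 higher markers, also named after their values were seen, were Fga (0.76, groups without overlap) and Apoa1 (0.57, overlapping groups). Alb, the first marker of the list, was at −0.70. The part of hepatocytes in the class I values was not tested.

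Among 15 further class I and class I-like genes that were tested, 8 were lower and 7 higher with APAP, and the median log2 fold change was −0.54 against 0.03 for all tested genes. Groups did not overlap for 6 lower and 2 higher of these genes, against 20.2% lower and 23.9% higher of all tested genes. Hfe, a class I-like protein that pairs with β2-microglobulin and controls iron uptake, fell. It was at 28.9 and 28.6 CPM after APAP and at 74.2, 53.6 and 55.2 CPM after saline (log2 fold change −1.08, standard error 0.23, adjusted p = 0.0395, edgeR). Hfe was the single one of these 15 genes past the adjusted threshold, which 3.53% of all tested genes passed in the lower direction. Its adjusted p was 0.218 without APAP replicate 1, 0.161 without APAP replicate 3, 0.0608 without WT1, 0.102 without WT2 and 0.0865 with library size only. H2-Q10, the most abundant of the list per length, was at 818 and 870.1 CPM after APAP and at 1543, 1359.5 and 1007 CPM after saline. The groups did not overlap, and the log2 fold change was −0.63 (95% interval −1.34 to 0.09, adjusted p = 0.256, edgeR). Named after their values were seen, Cd1d1, which presents lipids to NKT cells, was at 87.0 and 131 CPM after APAP against 247, 267 and 168 CPM after saline. Fcgrt, the β2-microglobulin-bound receptor that rescues albumin and IgG from degradation, was at 68.5 and 104 CPM against 186, 120.3 and 133 CPM. The adjusted p was 0.0934 for Cd1d1 and 0.178 for Fcgrt (edgeR), and 25.8% of the words of Cd1d1 occur in Cd1d2. Not all genes of the list went this way, as H2-M3 and Mr1 show, also named after their values were seen. H2-M3 was higher, at 4.16 and 4.08 CPM after APAP against 2.51, 2.92 and 1.94 CPM after saline (adjusted p = 0.259, edgeR). Mr1 overlapped, at 4.69 and 3.09 CPM against 7.62, 5.51 and 4.21 CPM. DESeq2 gave 3 of the 15 genes, Cd1d1, Hfe and H2-Q2, an adjusted p under 0.05, against 15.2% of all genes. H2-Q2 was at 3.87 and 1.24 CPM after APAP against 0.538, 0.730 and 0.267 CPM after saline (adjusted p = 0.0977, edgeR). Of the H2-Q and H2-T genes, up to 44.7% of the words occur in other genes (H2-T22), so that single counts of these genes are uncertain.

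Of 12 further genes of class I peptide supply and loading, 10 were lower and 2 higher with APAP, with a median log2 fold change of −0.57, and 0 passed the adjusted threshold in edgeR. At an unadjusted p under 0.05, 4 of the 12 genes passed, all of them lower, against 24.9% of all tested genes. DESeq2 gave 1 of the 12, Erap1, an adjusted p under 0.05, against 15.2% of all genes. Erap1, which trims peptides in the endoplasmic reticulum, was at 50.3 and 53.4 CPM after APAP and at 93.4, 99.4 and 83.0 CPM after saline (log2 fold change −0.83, standard error 0.20, adjusted p = 0.0581, edgeR). The groups were separate by a wide gap for this gene. Psmb8 and Psmb10, catalytic subunits of the immunoproteasome, which cuts many class I peptides, were chosen after their values were seen, as was Erap1. Psmb8 was at 8.39 and 12.2 CPM after APAP and at 33.1, 19.0 and 13.9 CPM after saline, and Psmb10 was at 7.86 and 14.5 CPM against 35.7, 19.6 and 14.8 CPM. Both had groups without overlap but a saline spread of more than 2-fold, and adjusted p-values of 0.154 and 0.199 (edgeR). Psmb9, a further immunoproteasome subunit of the list, also named after its values were seen, overlapped between the groups. It was at 4.69 and 4.20 CPM after APAP and at 9.41, 8.96 and 2.67 CPM after saline (adjusted p = 0.509, edgeR). Calr, the endoplasmic reticulum chaperone calreticulin and the most abundant gene of the list per length, was at 695 and 985 CPM after APAP and at 748, 532 and 606 CPM after saline (adjusted p = 0.429, edgeR).

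**Figure D3:**
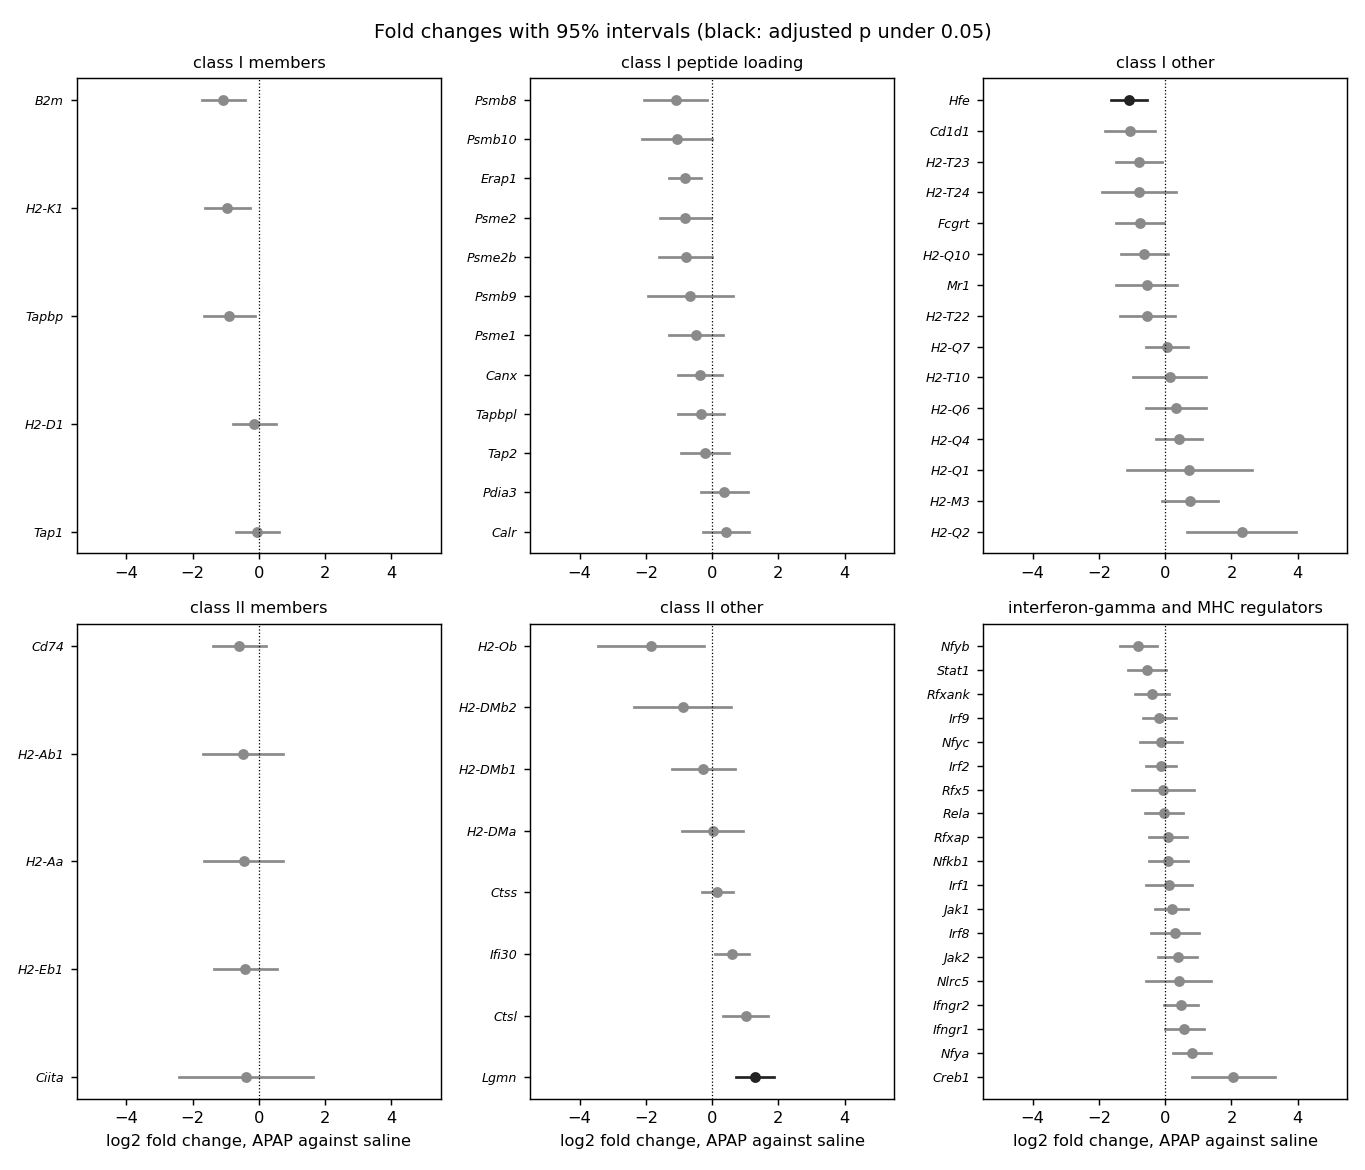
Log2 fold change of APAP against saline (horizontal axis) with its 95% interval for the tested genes of 6 lists. Among these genes Hfe (−1.08) and Lgmn (1.30), in black, have an adjusted p under 0.05 in edgeR, and the intervals of B2m, H2-K1 and Tapbp do not reach 0.

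Class II genes differed more among the libraries of a group than between the groups. All 5 were lowest in APAP replicate 1 and WT3 and higher in APAP replicate 3, WT1 and WT2. The mean with APAP was between 66.3% of the saline mean (Cd74) and 76.3% (Ciita), and no group was separate from the other. At an unadjusted p under 0.05, 0 of the 5 genes passed in edgeR, against 24.9% of all tested genes. DESeq2 gave 0 of the 5 an adjusted p under 0.05, against 15.2%. The groups did not overlap for 44.1% of all tested genes.

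H2-Ab1 (ENSMUSG00000073421, chromosome 17, 34263209 to 34269418), the β chain of the I-A molecule, was at 11.0 CPM in APAP replicate 1 and at 24.5 CPM in APAP replicate 3. With saline it was at 36.1, 26.0 and 12.3 CPM in WT1, WT2 and WT3. The higher APAP library was thus close to WT2, and the lower one close to WT3. H2-Ab1 spanned 2.23-fold within APAP and 2.92-fold within saline, where the median of 7858 genes averaging 10 CPM or more spanned 1.19-fold and 1.41-fold. Of these genes, 4.30% spanned at least as much as H2-Ab1 within APAP and 4.54% within saline. Its log2 fold change was −0.48 (95% interval −1.68 to 0.72, adjusted p = 0.604, edgeR).

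H2-Aa (ENSMUSG00000036594, chromosome 17, 34282744 to 34287827), which encodes the α chain of I-A, followed the same course. It was at 12.1 and 29.2 CPM after APAP and at 39.4, 31.2 and 15.0 CPM after saline (log2 fold change −0.46, 95% interval −1.65 to 0.72, adjusted p = 0.617, edgeR). The ratio of H2-Aa to H2-Ab1 counts stayed between 1.09 and 1.21 in the 5 libraries, although the level of each gene differed about 3-fold between WT1 and APAP replicate 1. H2-Eb1 (ENSMUSG00000060586, chromosome 17, 34305877 to 34316199), the β chain of I-E, was at 11.0 and 20.6 CPM after APAP and at 28.6, 21.6 and 13.1 CPM after saline (adjusted p = 0.575, edgeR). Its α chain is defective in C57BL/6 mice, and H2-Ea-ps had 0 counts in every library.

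Cd74 (ENSMUSG00000024610, chromosome 18, 60803848 to 60812646), the invariant chain, was the most abundant class II gene. It was at 32.3 and 55.8 CPM after APAP and at 81.4, 70.6 and 47.2 CPM after saline. Its spread within the groups was narrower than that of the chains, at 1.73-fold in each group. The log2 fold change was −0.59 (standard error 0.33, 95% interval −1.38 to 0.20, adjusted p = 0.329, edgeR). Ciita (ENSMUSG00000022504, chromosome 16, 10488178 to 10527564), the master regulator of class II transcription, had only 7 and 26 counts with APAP and 19, 28 and 6 counts with saline. These are 0.411 and 1.61 CPM against 1.70, 1.86 and 0.401 CPM. The lowest and highest library differed by more than 4-fold, with the same low libraries as for the chains. Its 95% interval of the log2 fold change, from −2.41 to 1.64, shows how little these counts can resolve.

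H2-Aa, H2-Ab1, H2-Eb1 and Cd74 ranked the libraries in 1 order, from WT1 through WT2, APAP replicate 3 and WT3 down to APAP replicate 1, an order held by 1.53% of the 13734 tested genes. In Ciita, WT1 and WT2 changed places, as did WT3 (0.401 CPM) and APAP replicate 1 (0.411 CPM). APAP replicate 1 and WT3 were the lowest libraries for 5 of 5 class II genes, for 0 of 5 class I genes and for 7.25% of all tested genes. Both patterns were taken from the class II values after these were seen. The shares of all genes are therefore a description and not a test.

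Markers of other cell types were read beside this pattern. APAP replicate 1 and WT3 were also the lowest libraries for 7 of 10 tested markers of sinusoidal endothelial cells and for 4 of 6 tested B cell markers, against 3 of 12 Kupffer cell markers and 1 of 4 dendritic cell markers. The summed endothelial list was at 203 and 304 CPM after APAP and at 358, 376 and 225 CPM after saline, with the same low libraries. Clec4g, an endothelial lectin, was at 15.7 and 32.0 CPM after APAP and at 51.3, 44.8 and 30.3 CPM after saline. Kdr, the VEGF receptor of these cells, was at 12.8 and 27.8 CPM against 38.3, 38.0 and 13.2 CPM, whereas Stab2, a scavenger receptor and the first marker of the list, was at 39.2 and 35.0 CPM against 29.7, 40.6 and 24.3 CPM.

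Dendritic and B cell markers were at low levels. The 12 dendritic cell markers summed to between 9.94 and 18.3 CPM, with 8 of them below the filter, and the defining marker Flt3 was at most at 0.926 CPM. The B cell list summed to between 14.3 and 22.6 CPM in 4 libraries and to 149.9 CPM in WT2, where the immunoglobulin gene Ighm alone was at 135 CPM, and the defining marker Cd79a was between 0.134 and 2.15 CPM. The Kupffer cell list summed to 344 and 588 CPM after APAP and to 526, 376 and 423 CPM after saline. Its marker Clec4f was between 58.8 and 91.7 CPM, with overlapping groups. Of the 12 Kupffer cell markers, 9 were lower and 3 higher with APAP, with a median log2 fold change of −0.26. Groups did not overlap for 1 lower and 1 higher marker, against 20.2% lower and 23.9% higher of all tested genes. Named after their values were seen, these were Vsig4 (log2 fold change −0.57) and Marco (2.49). Their adjusted p-values were 0.203 and 0.0625 (edgeR). The sum thus joins markers that moved in opposite directions. Neutrophil markers summed to 135 and 86.4 CPM after APAP and to between 5.64 and 9.95 CPM after saline. Of 10 monocyte markers, 9 were higher and 1 lower with APAP, with a median log2 fold change of 1.52. Groups did not overlap for 6 of them, all higher, against 23.9% of all tested genes in that direction. Chil3 (6.73), F13a1 (2.86) and Ccr2 (1.65), the receptor by which monocytes leave the bone marrow, rose with adjusted p-values of 0.000583, 0.0211 and 0.0401 (edgeR). An adjusted p under 0.05 in the higher direction was reached by 3.7% of all tested genes (edgeR). The defining marker Ly6c2 was between 0.334 and 1.99 CPM, with overlapping groups. The sum of the list, 1514 and 2112 CPM against 1694, 1249.7 and 1548 CPM, was mostly Fn1, which hepatocytes also make. The part of any of these cells in the class II values was not tested.

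**Figure D4:**
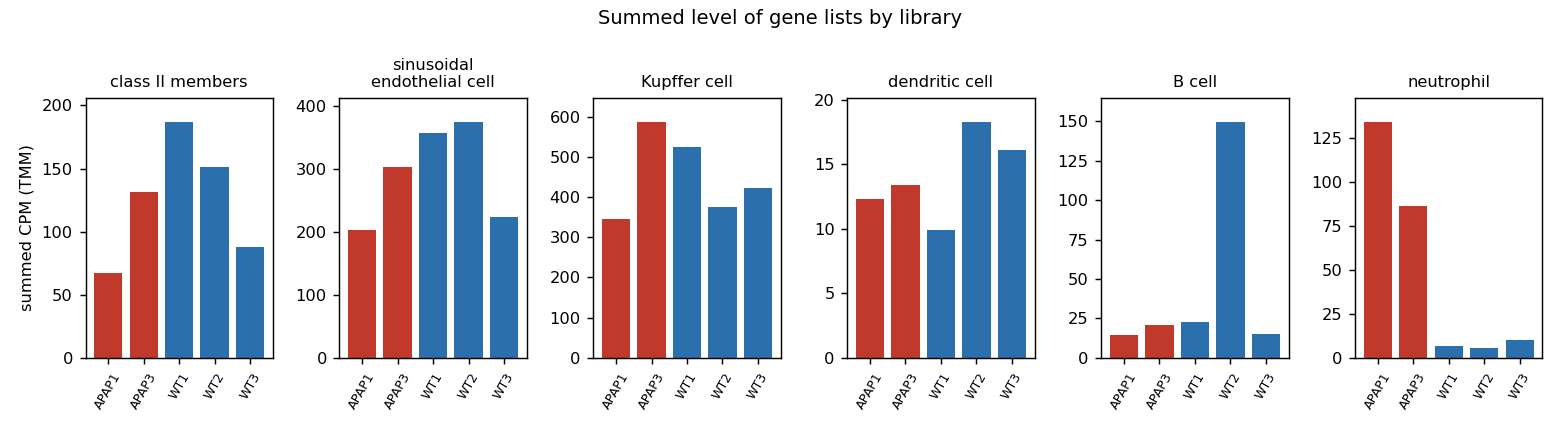
Summed TMM-scaled CPM (vertical axis, from 0, its scale different in each panel) of the class II genes and of 5 marker lists in each library, APAP in red and saline (WT) in blue. The class II genes and the endothelial list are both lowest in APAP replicate 1 and WT3, and neutrophil markers are highest with APAP (135 and 86.4 CPM).

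The genes whose pattern over the 5 libraries was most like the class II genes were searched among 7883 genes whose mean reached 10 CPM, by the mean absolute difference of centred log2 CPM. They were Tnfaip8l1 (0.0516), St6gal1 (0.0901), Dcun1d1 (0.101), Rgl1 (0.112) and Nr0b2 (0.119), while the class II genes themselves lay between 0.0747 (H2-Aa) and 0.161 (Ciita) from their mean. St6gal1, a sialyltransferase that hepatocytes and B cells make, was at 29.9 and 68.8 CPM after APAP and at 91.7, 67.7 and 41.6 CPM after saline. Closest to the mean class I pattern were H3f3c (0.0248), Ing2 (0.0253), Pkp4 (0.0291), Cyb5a (0.0322) and Sgpp1 (0.0324). The 5 class I genes lay between 0.168 (H2-K1) and 0.331 (Tap1) from that pattern, so that each was farther from it than these neighbours.

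Of 8 further tested class II genes, which include the chaperones and proteases of peptide loading, 5 were higher and 3 lower with APAP, with a median log2 fold change of 0.09. At an unadjusted p under 0.05, 4 of the 8 passed in edgeR, against 24.9% of all tested genes. Groups did not overlap for 2 lower and 3 higher of them, against 20.2% lower and 23.9% higher of all tested genes. Lgmn, the lysosomal asparaginyl endopeptidase legumain, which cuts antigens and the invariant chain, rose. It was at 117 and 130.1 CPM after APAP and at 63.2, 44.3 and 43.4 CPM after saline (log2 fold change 1.30, standard error 0.24, adjusted p = 0.0280, edgeR). Of all tested genes, 3.70% passed this threshold in the higher direction. The adjusted p of Lgmn was 0.124 without APAP replicate 1, 0.113 without APAP replicate 3, 0.125 without WT2 and 0.0527 without WT3. Ctsl, which encodes the lysosomal protease cathepsin L and is the most abundant gene of the list per length, was at 1732 and 1267 CPM after APAP and at 791, 640.1 and 804 CPM after saline. Both APAP values were above all saline values (log2 fold change 1.01, standard error 0.28, adjusted p = 0.0821, edgeR). DESeq2 gave both proteases, 2 of the 8 genes, an adjusted p under 0.05, against 15.2% of all genes. Both are also made outside antigen-presenting cells. H2-Ob and Ctss, a further protease, were named after their values were seen. H2-Ob was lower, at 0.352 and 0.309 CPM after APAP against 1.52, 1.46 and 0.668 CPM after saline (adjusted p = 0.153, edgeR). Ctss overlapped, at 40.2 and 47.4 CPM against 42.6, 35.5 and 39.5 CPM.

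Of 19 tested genes of interferon-γ signalling and MHC regulation, 11 were higher and 8 lower with APAP, with a median log2 fold change of 0.09, and 0 passed the adjusted threshold in edgeR. At an unadjusted p under 0.05, 3 of the 19 passed, against 24.9% of all tested genes. DESeq2 gave 2 of the 19 an adjusted p under 0.05, against 15.2%. These were Creb1, which binds the cAMP response element (log2 fold change 2.05, adjusted p = 0.0668, edgeR), and Nfyb, a subunit of the factor that binds the Y box (−0.81, adjusted p = 0.0907, edgeR). Ifng, the cytokine that induces both classes, had 0 counts in every library. Nlrc5, the transactivator of class I genes, was at 36.4 and 21.0 CPM after APAP and at 11.7, 26.0 and 27.3 CPM after saline, with overlapping groups (log2 fold change 0.40, 95% interval −0.57 to 1.37). Rfx5, which binds the X box, was at 10.3 and 7.90 CPM against 11.7, 11.8 and 5.34 CPM. Rela, the NF-κB subunit p65 and the most abundant gene of the list per length, was at 39.6 and 49.0 CPM against 50.9, 35.0 and 49.5 CPM. The intervals of Rfx5 (−1.01 to 0.86) and Rela (−0.60 to 0.55) cover differences in both directions.

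To compare levels between the genes, CPM were divided by the length of all exons of a gene in kilobases. The lengths came from GENCODE M21. Among the 10 genes its coordinates equalled the listed ones for H2-D1, B2m and Tap1 only, so the counted exons of the others may differ. In the saline libraries B2m was highest, at 1885 ± 187 CPM per kilobase (SD, n = 3). H2-K1 at 358 ± 69.7 and H2-D1 at 269.6 ± 44.6 CPM per kilobase followed, and the means of these neighbours lay within about 1 to 2 SD of each other. Cd74 was at 39.6 ± 10.4 and Tapbp at 22.3 ± 7.75 CPM per kilobase. H2-Eb1 (10.9 ± 3.99), H2-Ab1 (9.67 ± 4.64) and H2-Aa (7.51 ± 3.28) did not differ beyond their spread. Tap1 was at 2.11 ± 0.496 and Ciita at 0.138 ± 0.0839 CPM per kilobase. In the APAP libraries H2-D1, at 244 ± 28.5 CPM per kilobase (SD, n = 2), was above H2-K1, at 185 ± 9.16. The order of these 2 genes depended on the length used, since with the longest coding transcript H2-K1 was above H2-D1 in APAP (336 against 299.5 CPM per kilobase) as in saline (649.7 against 331). With that length the mean of H2-Aa was above those of H2-Ab1 and H2-Eb1 in saline, but not beyond their spread. The levels were 25.3 ± 11.0, 20.5 ± 9.84 and 12.6 ± 4.65 CPM per kilobase (SD, n = 3).

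The choice of scaling moved every gene by about the same amount. Without TMM the median log2 fold change of all tested genes was 0.42 instead of 0.03, and H2-D1 (0.28) and Tap1 (0.34) turned to higher with APAP. Relative to that median, B2m was at −1.09, H2-K1 at −0.95, Tapbp at −0.89, H2-D1 at −0.14 and Tap1 at −0.08. Leaving out APAP replicate 1 put H2-Ab1 at −0.02, H2-Eb1 at −0.03, H2-Aa at 0.039, Cd74 at −0.25 and Ciita at 0.29. Without APAP replicate 3 they were at −1.18, −0.94, −1.25, −1.05 and −1.67. Without both low libraries, a setting chosen after the data were seen, H2-Ab1 was at −0.35, Cd74 at −0.45, B2m at −1.08 and H2-K1 at −1.05, and 0 of the 10 genes had an adjusted p under 0.05.

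**Figure D5:**
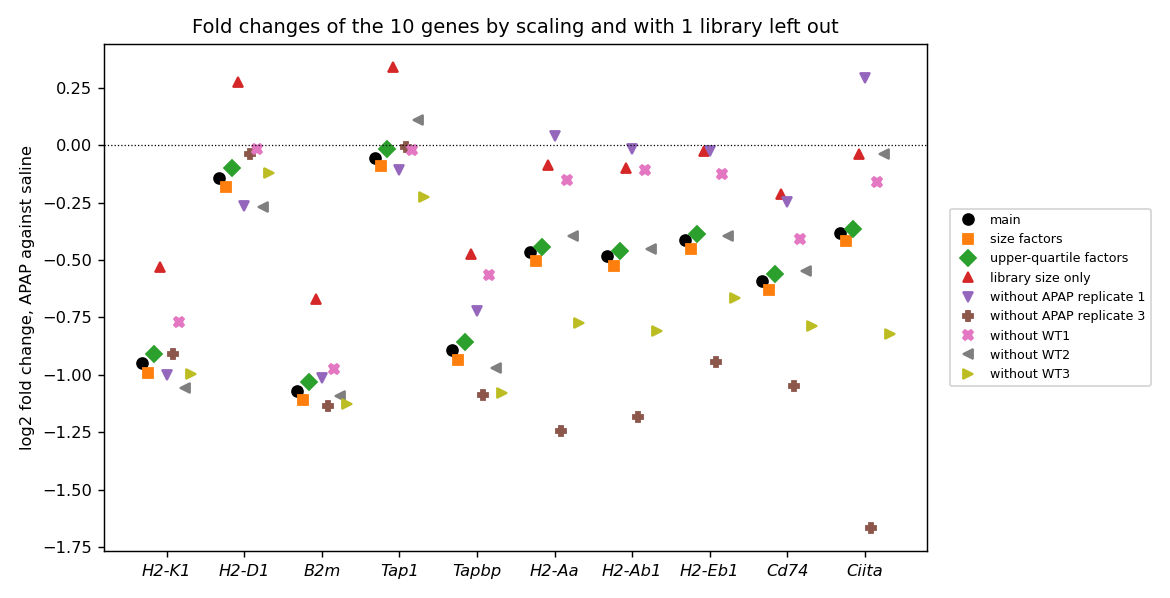
Log2 fold change of APAP against saline (vertical axis) of the 10 genes under the TMM scaling used (black), 3 other scalings and with each library left out. B2m and H2-K1 stay below −0.5 in all settings drawn, and the class II genes range from −1.67 to 0.29.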

How the data were processed

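The authors extracted liver RNA with TRIzol, prepared mRNA libraries with a SMARTER kit, sequenced them on a NovaSeq instrument (Illumina) and derived read counts per gene by HISAT2. These raw counts were deposited without normalization. The submitters' processing notes name GRCm38, while the annotation, the strand setting and versions are not given in the sources used here. The 5 FPKM columns, which the authors made with StringTie, were not used. Reads of genes that overlap on opposite strands (Patl2 with B2m, Psmb9 with Tap1, Gm19412 with Tapbp, Gm20513 with H2-Eb1, Dexi with Ciita) cannot be told apart without strand. Zbtb22 overlaps Tapbp and Mir5107 overlaps Cd74 on the same strand, where strand would not separate the reads.

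Counts were analysed with edgeR 4.0.16 in R 4.3.3 (filterByExpr with a minimum count of 10, TMM, glmQLFit, glmQLFTest, Benjamini-Hochberg adjustment over 13734 genes), which was tested on simulated data. Standard errors were derived from the fold change and the F statistic. DESeq2 1.42.0, other edgeR tests, scalings and filters were alternatives. A count of 3, between 0.176 and 0.269 CPM, was taken as the floor and covers counting error only. Gene lengths and shared words came from GENCODE M21. Permutation tests used scipy 1.17.1. The design was written for 3 libraries per group.

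The genes and lists were chosen with earlier results of these data known. Named genes were the 10 genes, genes of the other MHC lists with an adjusted p under 0.05 or the highest level per length, Nlrc5, Rfx5, the closest 5 genes to each pattern, and first or defining markers. Others are said to be chosen after their values were seen, as were Clec4g, Chil3, F13a1, Ccr2, Kdr, Ighm, Fn1, Creb1 and Nfyb.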

Additional observations from a re-analysis of the deposited data

How the results depend on the processing

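No paired analysis was possible because the numbers of WT1, WT2 and WT3 are not tied to the numbered saline samples. The replicate block was not run for that reason. The Methods also describe no pairing of APAP mice with saline mice, so a shared replicate number is not known to mark a pair. Of the 10 genes, the number with an adjusted p under 0.05 was 0 with edgeR's quasi-likelihood test under every scaling, filter and left-out library, 2 with the likelihood ratio test, 1 with the exact test, 2 with DESeq2 and 3 with a threshold of 1.5-fold and an unadjusted P under 0.05, all of them class I genes (2, 1, 2 and 3), and 0 of the class II genes passed in any of these. For the 4 other MHC lists together the number was 2, against 7, 6, 8 and 16 under the same 4 settings, 4 with library size only, 0 without both APAP replicate 1 and WT3, and between 0 and 1 with 1 library left out. For all genes it was 993, against 1835, 1776, 2093 and 3228, and between 165 (without WT2) and 922 with 1 library left out (235 without APAP replicate 1, 401 without APAP replicate 3, 510.0 without WT1). The share of higher calls was 51.2% with TMM, 77.8% with library size only, 61.7% without APAP replicate 1 and 61.1% without APAP replicate 3. The sign turned for H2-D1 (0.28) and Tap1 (0.34) with library size only, for Tap1 without WT2 (0.11), and for H2-Aa (0.039) and Ciita (0.29) without APAP replicate 1. With 1 library left out, Tap1 ranged from −0.22 to 0.11, H2-Aa from −1.25 to 0.039 and Ciita from −1.67 to 0.29. Hfe kept its direction, from −1.17 to −0.67, as did Lgmn, from 1.20 to 1.71. A fit without an APAP library assumes that the lone library varies like the saline group. Ciita was not testable with a filter of 10 counts in every library.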
